A study of Mus musculus with 9 samples.

Results

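The macrophage genes described here are Csf1r, Cd68, Mrc1, Cd14, Tyrobp, Fcer1g, C1qa, C1qb, Mpeg1 and Ptprc. They were chosen by gene symbol, and every probe set that the platform annotation gives to 1 of these 10 symbols alone was taken. This gave 15 probe sets, out of 45037 on the array that are not array controls and that carry 18193 single symbols between them. Of the 10 genes, 7 had 1 probe set and 3 (Csf1r, C1qb and Ptprc) had several.

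The study measured RNA from 3 layers of the neonatal mouse bladder with the Affymetrix MOE430 microarray. The layers were the urothelium, which is the epithelium that lines the lumen, the detrusor, which is the smooth muscle coat, and the stroma, the connective tissue between them. Each layer was cut from frozen sections by laser capture and has 3 arrays, and each array carries an unpooled sample. All mice, in every layer, were FVB/N animals with the SMGA/EGFP transgene, in which the smooth muscle gamma-actin (Actg2) promoter drives a green fluorescent protein, and no group lacks it. Sex was not recorded and no treatment was given. Urothelium 2, detrusor 1, detrusor 2 and stroma 1 came from postnatal day 1, and urothelium 1, urothelium 3, detrusor 3, stroma 2 and stroma 3 from postnatal day 2, so stroma 1 was the only day 1 stroma array. The RNA was amplified in 2 rounds. The labels do not tie arrays to animals, so the p-values below measure the spread between these arrays, and with 3 arrays a layer the number of arrays limits the precision.

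Macrophages are phagocytes that settle in most tissues before and around birth and remain there as resident cells. CSF1R is the receptor for the growth factors CSF1 and IL-34, on which macrophage survival depends. MRC1 (the mannose receptor, CD206) takes up glycoproteins with mannose-ended sugars, and CD14 binds bacterial lipopolysaccharide and passes it to Toll-like receptor 4. TYROBP (DAP12) and FCER1G (the Fc receptor gamma chain) are short transmembrane adapters that carry the signal of receptors with no signalling tail of their own. C1QA and C1QB are chains of the recognition protein of the classical complement pathway, CD68 is a glycoprotein of late endosomes and lysosomes, and MPEG1 (perforin-2) is a pore-forming protein of the phagosome. PTPRC (CD45) is a tyrosine phosphatase on all nucleated blood cells, so it marks leukocytes in general.

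RefSeq promoter windows (build GRCm38.p6) were used for 6 of the 10 genes, as 7 windows. Any window of the 10 genes on 1 chromosome was left out, a rule not applied to the windows of all genes. The 250 bases before the transcription start were searched on both strands for GAGGAA, the purine-rich box bound by the myeloid transcription factor PU.1. The letters were found in 4 of the 6 genes (Cd68, Mrc1, C1qb and Ptprc). By window this was 4 of 7, since only the first of the Ptprc pair held them, against 23.3% of all 32851 windows of the same length. A match is a description of these letters and not a binding site. The 3 printed first are those with a match whose probe sets were highest in stroma 1, and that of Mpeg1 is shown as an example without a match. The window of Fcer1g, not printed, held no match either. Mpeg1 and Fcer1g were also highest in stroma 1, and a link between a match and a pattern over the arrays was not tested. All run 5′ to 3′ on the gene's strand and end at the base before the start. Capitals mark GAGGAA or its reverse complement TTCCTC. The Cd68 window is chr11:69666171-69666420 on the minus strand, that of Mrc1 is chr2:14229164-14229413 on the plus strand, that of C1qb is chr4:136886201-136886450 on the minus strand, and that of Mpeg1 is chr19:12460520-12460769 on the plus strand.
Cd68: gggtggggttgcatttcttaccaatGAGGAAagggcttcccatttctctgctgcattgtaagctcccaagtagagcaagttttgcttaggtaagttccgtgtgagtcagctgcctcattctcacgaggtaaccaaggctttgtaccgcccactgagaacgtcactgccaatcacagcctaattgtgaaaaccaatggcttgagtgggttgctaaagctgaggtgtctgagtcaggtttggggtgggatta
Mrc1: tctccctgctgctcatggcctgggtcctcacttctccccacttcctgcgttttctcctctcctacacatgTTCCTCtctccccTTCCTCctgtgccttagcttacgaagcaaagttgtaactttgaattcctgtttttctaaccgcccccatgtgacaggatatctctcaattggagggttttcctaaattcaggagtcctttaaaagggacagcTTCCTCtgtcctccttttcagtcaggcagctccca
C1qb: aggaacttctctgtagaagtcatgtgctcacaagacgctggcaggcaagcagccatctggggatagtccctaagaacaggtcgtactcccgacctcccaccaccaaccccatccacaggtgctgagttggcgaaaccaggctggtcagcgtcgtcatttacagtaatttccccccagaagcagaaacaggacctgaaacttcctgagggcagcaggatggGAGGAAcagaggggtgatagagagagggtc
Mpeg1: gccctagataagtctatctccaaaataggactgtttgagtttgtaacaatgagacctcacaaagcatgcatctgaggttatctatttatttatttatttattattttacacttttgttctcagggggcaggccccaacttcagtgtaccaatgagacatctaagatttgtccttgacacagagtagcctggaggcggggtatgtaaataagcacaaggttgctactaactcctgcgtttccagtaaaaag
The match of C1qb lay 30 bases before the start and that of Cd68 225 bases before it. Mrc1 held 3 matches, all on the opposite strand, at 180, 167 and 35 bases before the start. The other motif searched, TATAAA, was found in 12.4% of all windows and, among the 7 windows here, only in the first of the pair of Ptprc.

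The values are probe set intensities on a linear scale, which the authors scaled so that all 9 arrays had the same trimmed mean. Intensities of different probe sets are not compared with each other, since each probe set binds with its own strength. Tests used log2(intensity + 39.31), where 39.31 is the 20th percentile of all values, so a fold understates the change of a dim probe set. The test was limma with all 9 arrays, over the 25695 probe sets that reached their array's median on at least 3 arrays, and a call is a Benjamini-Hochberg adjusted p under 0.05. Of the 15 macrophage gene probe sets, 14 passed this filter and were tested. Mpeg1 and the C1qb probe set 1417063_at passed with exactly 3 arrays.

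Markers of the layers showed mixing that has to stand beside every result, most of all on stroma 1, stroma 3 and urothelium 3. Upk1b, a uroplakin of the urothelial surface, read 64295 on stroma 3, against 5850 and 1182 on the other stroma arrays and 51918 to 68910 on the urothelium arrays. The muscle myosin gene Myh11 read 51568 on urothelium 3, against 820 and 221 on the other urothelium arrays and 57477 to 97104 on the detrusor arrays. Actg2 likewise read 82286 on urothelium 3, against 1920 and 757 on urothelium 1 and urothelium 2 and 72260 to 109196 on the detrusor arrays, and it read 40808, 4214 and 35233 in stroma 1 to 3. The summed intensity of the urothelium list was 220288 to 304062 in urothelium, 5501 to 7687 in detrusor and 50929, 16541 and 200290 in stroma 1 to 3. That of the smooth muscle list was 28708, 20291 and 297630 in urothelium 1 to 3, 309871 to 450821 in detrusor and 169127, 50438 and 149017 in stroma 1 to 3. By these sums, stroma 1 and stroma 3 carried more of both other layers' transcripts than stroma 2. Not every gene followed, since Epcam and Upk2 of the urothelium list were higher on stroma 2 than on stroma 1. The ratio of 3′ to 5′ signal of Actb, which grows as RNA is shortened, was 24.7 on stroma 1 and between 2.27 and 8.49 on the other 8 arrays. The same ratio of Gapdh did not single out stroma 1, with 31.8 there, 34.7 on detrusor 2, 27.1 on stroma 2 and 15.3 to 24.1 on the other 6. No pair of arrays held identical values. In such samples of whole layers, fewer macrophages and less RNA per macrophage cannot be told apart.

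**Figure D1:**
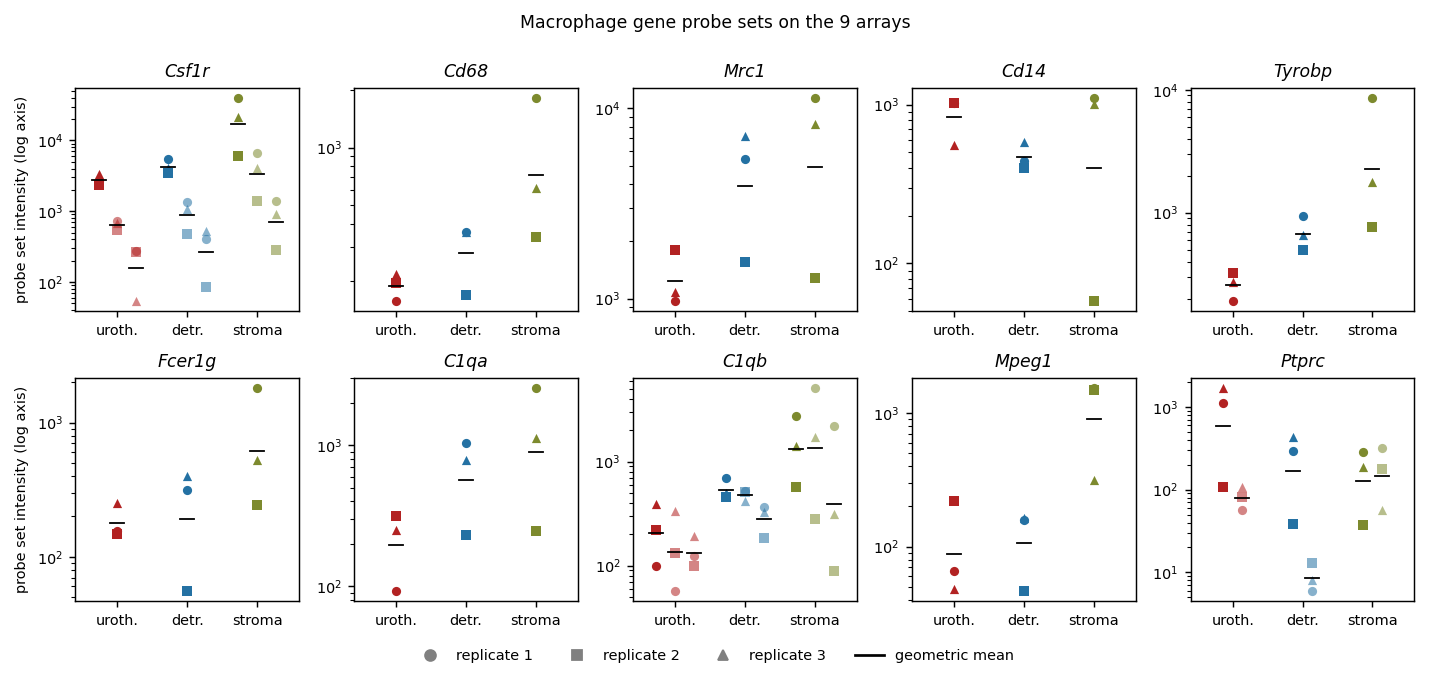
Intensity (log axis, its range set for each gene) of the 15 probe sets of the 10 macrophage genes in urothelium (uroth.), detrusor (detr.) and stroma. Each symbol is 1 array, the shape gives the replicate, the line is the geometric mean, and pale symbols are further probe sets of the same gene. Stroma 1 (circle) is the highest stroma array for every gene, and stroma 2 (square) is the lowest stroma array for most.

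Csf1r, the growth factor receptor of the lineage, had its highest values on the stroma arrays. Its brightest probe set, 1419872_at, read 2705, 2325 and 3363 in urothelium 1 to 3, 5428, 3488 and 4073 in detrusor 1 to 3, and 39385, 6107 and 21498 in stroma 1 to 3. Every stroma array was above every array of the other layers, and every detrusor array was above every urothelium array. The log2 level was 11.45 ± 0.26 in urothelium, 12.07 ± 0.32 in detrusor and 14.08 ± 1.37 in stroma (SD, n = 3 each). Urothelium was 6.18-fold below stroma (log2 difference -2.63 ± 0.55 SE, limma adjusted p = 0.0775), and detrusor was 4.04-fold below it (-2.01 ± 0.55, limma adjusted p = 0.0750). Neither reached the call. Urothelium minus detrusor was -0.61 (95% interval -1.83 to 0.60, limma adjusted p = 0.571).

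The second Csf1r probe set, 1419873_s_at, repeated this order at lower intensity, with 536 to 716 in urothelium, 472 to 1359 in detrusor and 6714, 1385 and 4050 in stroma 1 to 3. Its lowest stroma array, 1385, stood just above its highest detrusor array, 1359. The third, 1423593_a_at, read 280 in stroma 2, inside the detrusor range of 86.4 to 534, and above the 3 urothelium arrays at 53.7 to 272. The 3 probe sets thus placed stroma 1 first, stroma 3 second and stroma 2 lowest of the stroma arrays.

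Mrc1 did not share the gap between detrusor and stroma. It read 969, 1811 and 1084 in urothelium 1 to 3, 5410, 1550 and 7169 in detrusor 1 to 3, and 11307, 1288 and 8247 in stroma 1 to 3. In both the detrusor and the stroma, replicate 2 was low, at the level of the urothelium arrays, and the other 4 arrays were high. The log2 level was 10.32 ± 0.47 in urothelium, 11.95 ± 1.16 in detrusor and 12.29 ± 1.67 in stroma (SD, n = 3 each). Urothelium was 3.91-fold below stroma (limma adjusted p = 0.256) and 3.10-fold below detrusor (limma adjusted p = 0.227), while detrusor minus stroma was -0.33 on the log2 scale (95% interval -2.04 to 1.37, limma adjusted p = 0.850).

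Cd14 departed from the other receptors in the urothelium. It read 1027, 1028 and 560 in urothelium 1 to 3, 444, 396 and 580 in detrusor 1 to 3, and 1097, 57.8 and 1002 in stroma 1 to 3. Urothelium 1 and urothelium 2 were thus as bright as stroma 1 and stroma 3, and stroma 2 was the lowest of the 9 arrays. Urothelium minus stroma was 0.86 on the log2 scale (95% interval -0.92 to 2.63, limma adjusted p = 0.651) and detrusor minus stroma was 0.06 (95% interval -1.72 to 1.84, limma adjusted p = 0.976). The 2 layer means furthest apart, those of urothelium and stroma, differed by less than the spread of the stroma arrays, whose SD was 2.01.

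The adapter Tyrobp had the largest fold between urothelium and stroma among the 10 brightest probe sets of the genes. It read 190.5, 323 and 274 in urothelium 1 to 3, 937, 498 and 654 in detrusor 1 to 3, and 8536, 770 and 1771 in stroma 1 to 3. Urothelium lay below both other layers without overlap, while stroma 2 fell inside the detrusor range and stroma 1 read 11.1 times stroma 2. The urothelium was 7.84-fold below the stroma (log2 difference -2.97 ± 0.72 SE, limma adjusted p = 0.0937), and the detrusor was 3.26-fold below it (-1.70 ± 0.72, limma adjusted p = 0.219).

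The other adapter, Fcer1g, read 157, 147 and 251 in urothelium 1 to 3, 312, 55.7 and 399 in detrusor 1 to 3, and 1818, 242 and 528 in stroma 1 to 3. Detrusor 2 was its lowest array and stroma 2 lay inside the urothelium range. Urothelium minus stroma was -1.60 (95% interval -3.28 to 0.08, limma adjusted p = 0.351), detrusor minus stroma was -1.45 (limma adjusted p = 0.328), and urothelium minus detrusor was -0.16 (limma adjusted p = 0.939).

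C1qa, the first complement chain, read 93.2, 316 and 253 in urothelium 1 to 3, 1035, 230.1 and 780 in detrusor 1 to 3, and 2545, 246 and 1132 in stroma 1 to 3. As for Mrc1, replicate 2 of both the detrusor and the stroma lay in the urothelium range. Urothelium was 3.98-fold below stroma (limma adjusted p = 0.271) and 2.58-fold below detrusor (limma adjusted p = 0.344), and detrusor minus stroma was -0.62 on the log2 scale (95% interval -2.40 to 1.15, limma adjusted p = 0.712).

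C1qb had 3 probe sets. The brightest by mean level, 1434366_x_at, read 98.9, 220.1 and 390 in urothelium 1 to 3, 690.3, 454 and 494 in detrusor 1 to 3, and 2771, 571 and 1412 in stroma 1 to 3. The urothelium arrays lay below all other arrays, and stroma 2 lay inside the detrusor range. Urothelium was 5.45-fold below stroma (log2 difference -2.45 ± 0.61 SE, limma adjusted p = 0.0977) and 2.32-fold below detrusor (limma adjusted p = 0.254), and detrusor was 2.35-fold below stroma (limma adjusted p = 0.295). The other 2 probe sets placed stroma 2 lower, at 279 for 1437726_x_at and 88.3 for 1417063_at, which was the lowest of its 9 arrays. On them stroma 1 read 18.3 and 25.0 times stroma 2, against 4.85 times on the brightest. C1qc, the third chain of the same protein, was outside the 10 genes and was looked up for its role. It read 27.8, 78.4 and 133 in urothelium 1 to 3, 395, 13.6 and 269 in detrusor 1 to 3, and 1706, 154 and 407 in stroma 1 to 3, with a urothelium minus stroma difference of -2.26 (limma adjusted p = 0.286).

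Cd68 read 157, 194 and 218 in urothelium 1 to 3, 363, 168 and 362 in detrusor 1 to 3, and 1816, 339 and 612 in stroma 1 to 3. The urothelium arrays all lay below the stroma arrays, by 3.39-fold on average (log2 difference -1.76 ± 0.60 SE, limma adjusted p = 0.193). Detrusor was 2.39-fold below stroma (limma adjusted p = 0.281), with stroma 2 inside the detrusor range.

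Mpeg1 had the pattern least shared with the other genes among the stroma arrays. It read 66.2, 219.6 and 47.8 in urothelium 1 to 3, 157, 46.7 and 164 in detrusor 1 to 3, and 1550, 1499 and 314 in stroma 1 to 3. Stroma 2, low for most of the other genes, was here 1.03-fold below stroma 1, and stroma 3 was the lowest stroma array. All 3 stroma arrays were above the other 6. Urothelium was 7.13-fold below stroma (log2 difference -2.83 ± 0.72 SE, limma adjusted p = 0.105) and detrusor 6.31-fold below it (-2.66 ± 0.72, limma adjusted p = 0.0717). This probe set entered the test with exactly 3 arrays at or above the array median, stroma 1 and stroma 2 among them, so it was tested because of arrays in which it was high.

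The 2 probe sets of Ptprc disagreed. The brighter, 1422124_a_at, read 1110, 107 and 1709 in urothelium 1 to 3, 292, 38.4 and 430.0 in detrusor 1 to 3, and 289, 36.9 and 186 in stroma 1 to 3. Its highest arrays were thus urothelium 3 and urothelium 1, and replicate 2 was low in each layer. Urothelium minus stroma was 1.90 on the log2 scale (95% interval -0.29 to 4.09, limma adjusted p = 0.396), and urothelium minus detrusor was 1.54 (95% interval -0.66 to 3.73, limma adjusted p = 0.396). The other, 1440165_at, read 57.0, 81.0 and 107 in urothelium, 5.96, 12.99 and 8.04 in detrusor, and 321, 177 and 56.4 in stroma, and was not tested because it reached the array median on 1 array. Which of them follows the transcript cannot be told from these files, so no direction is given for Ptprc.

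**Figure D2:**
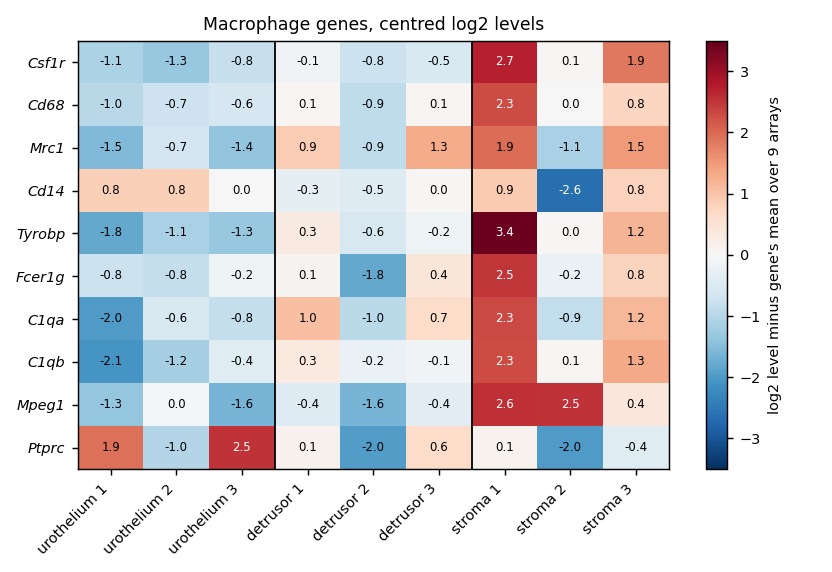
Log2 level of each macrophage gene (brightest probe set) on each array, minus that gene's mean over the 9 arrays, in columns ordered urothelium, detrusor, stroma. The stroma 1 column is above the gene's mean for all 10 genes, the urothelium columns are mostly below it, and the rows of Cd14, Mpeg1 and Ptprc stand apart.

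Averaged over the brightest probe sets of the 10 genes, the centred log2 level was -0.88, -0.66 and -0.46 in urothelium 1 to 3, 0.20, -1.01 and 0.19 in detrusor 1 to 3, and 2.11, -0.42 and 0.94 in stroma 1 to 3. On this average stroma 1 stood above all others. The order of the lower arrays depends on Ptprc, for which no direction is given. Its centred level was 1.935, -1.039 and 2.54 in urothelium 1 to 3, -1.951 on detrusor 2 and -1.979 on stroma 2. With Ptprc included, detrusor 2 was lowest and stroma 2 lay just above the urothelium arrays. The stroma 2 average also includes Cd14 at -2.63. On these brightest probe sets, stroma 2 was above every urothelium array for Csf1r, Cd68, Tyrobp, C1qb and Mpeg1, and not for Mrc1, Cd14, Fcer1g, C1qa and Ptprc. The further C1qb probe sets did not show this. On 1437726_x_at stroma 2 read 279 and urothelium 3 read 332, and on 1417063_at stroma 2 was the lowest array. Stroma 1 was the highest of the 9 arrays for 13 of the 14 tested macrophage gene probe sets, against 15.3% of all tested probe sets. Stroma 1 was highest and stroma 3 second for 10 of the 14, against 4.39% of all. Stroma 2 was below both other stroma arrays for 13 of the 14, against 38.9% of all. The median SD of the log2 level within a layer was 0.47 in urothelium, 0.63 in detrusor and 1.37 in stroma for the 14 probe sets, against 0.47, 0.43 and 0.62 for all tested probe sets in the same layers. The difference between stroma arrays was thus larger for these genes than the usual spread, while the urothelium arrays were as close to each other as for a typical probe set. Stroma 1 is also the array with the highest Actb ratio, the only stroma array of postnatal day 1 and a stroma array with urothelial and muscle transcripts, and the part of RNA length, age or mixing in its high values was not tested.

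In urothelium against stroma, no macrophage gene probe set was called by limma, where 24 of all probe sets, or 0.0934%, were. At an unadjusted limma p under 0.05, 10 of the 14 were lower in urothelium, against 8.81% of all probe sets, and none was higher. The probe sets below this level were those of Csf1r (3), C1qb (2), Cd68, Mrc1, Tyrobp, C1qa and Mpeg1. The urothelium arrays lay below the stroma arrays without overlap for 7 of the 14, against 11.8% of all. The median log2 difference was -1.98 over the 14 and -0.15 over all tested probe sets, and 12 of the 14 were below 0, the exceptions being Cd14 and the brighter Ptprc probe set.

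In detrusor against stroma, again none of the 14 was called, against 3.56% of all probe sets. At an unadjusted limma p under 0.05, 4 of the 14 were lower in detrusor, against 10.9% of all, and these were 2 of Csf1r with Tyrobp and Mpeg1. The detrusor arrays lay below the stroma arrays without overlap for 3 of the 14, against 14.1% of all. The median difference was -1.26 over the 14 and -0.17 over all. Here too 12 of the 14 were below 0. Centring each array on its median moved the median of all probe sets by 0.41 in detrusor against stroma and by 0.42 in urothelium against stroma, after which 11 and 12 of the 14 were below 0, since Mrc1 turned to 0.08 in detrusor against stroma.

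In urothelium against detrusor, none of the 14 was called, against 11% of all probe sets, and none passed an unadjusted limma p under 0.05, against 24.2% of all. The urothelium arrays lay below the detrusor arrays without overlap for 4 of the 14 (Csf1r 1419872_at, Tyrobp and 2 of C1qb), against 17.4% of all. The median difference was -0.61 over the 14 and -0.02 over all. The comparison that separates the most probe sets overall therefore separated none of the macrophage gene probe sets by the test. The smallest two-sided p of an exact permutation test with 3 arrays against 3 is 0.1, so no such test is given for single genes.

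**Figure D3:**
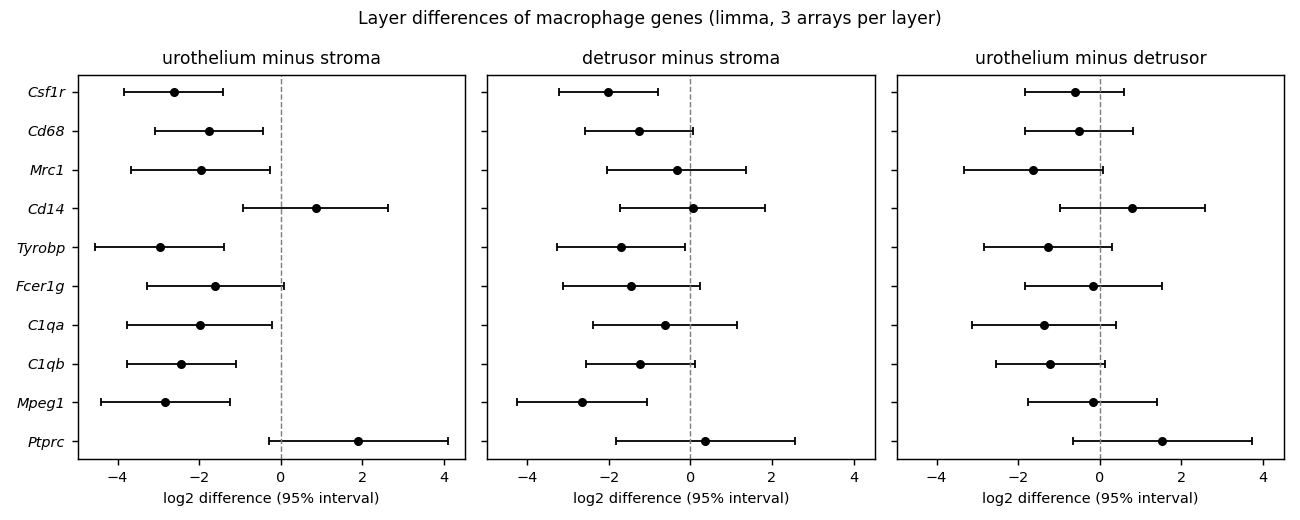
Log2 difference between layers for the brightest probe set of each macrophage gene, with the 95% interval from limma, in 3 panels with 3 arrays a layer. The intervals of urothelium minus stroma lie wholly below 0 for 7 of the genes, from Tyrobp at -2.97 to Cd68 at -1.76, and none of them reached an adjusted p under 0.05.

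Leaving out single stroma arrays moved these values, and 2 genes passed the test in that way. The number of calls over all probe sets moved as well. Fits with single arrays of any layer left out called 0 to 563 in urothelium against stroma (24 with all arrays). In detrusor against stroma they called 69 to 943 (915 with all arrays). Without stroma 1 these numbers were 0 and 728. Whether the macrophage gene calls below go beyond such a general shift was not tested. Without stroma 2, Csf1r 1419872_at was called by limma in urothelium against stroma (log2 difference -3.38, adjusted p = 0.0390) and in detrusor against stroma (-2.76, adjusted p = 0.00482), and Csf1r 1419873_s_at was called in detrusor against stroma (-2.50, adjusted p = 0.0269). Without stroma 3, Mpeg1 was called by limma in urothelium against stroma (-3.55, adjusted p = 0.0270) and in detrusor against stroma (-3.37, adjusted p = 0.0353). Without stroma 1, no macrophage gene probe set was called, the Csf1r difference shrank to -2.04 in urothelium against stroma and to -1.42 in detrusor against stroma, and that of C1qa in detrusor against stroma changed sign to 0.10. Mpeg1 no longer passed the filter without stroma 1 or without stroma 2. Its lowest stroma array, stroma 3, was thus the only stroma array it could be tested without, and these calls give no separate support. Without stroma 3 and urothelium 3 together, the median over the macrophage gene probe sets was -1.98 in urothelium against stroma, -1.24 in detrusor against stroma and -0.67 in urothelium against detrusor. Mpeg1 in detrusor against stroma was then the only one called (-3.37, limma adjusted p = 0.0318), and the urothelium minus stroma difference of the brighter Ptprc probe set was 1.37.

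**Figure D4:**
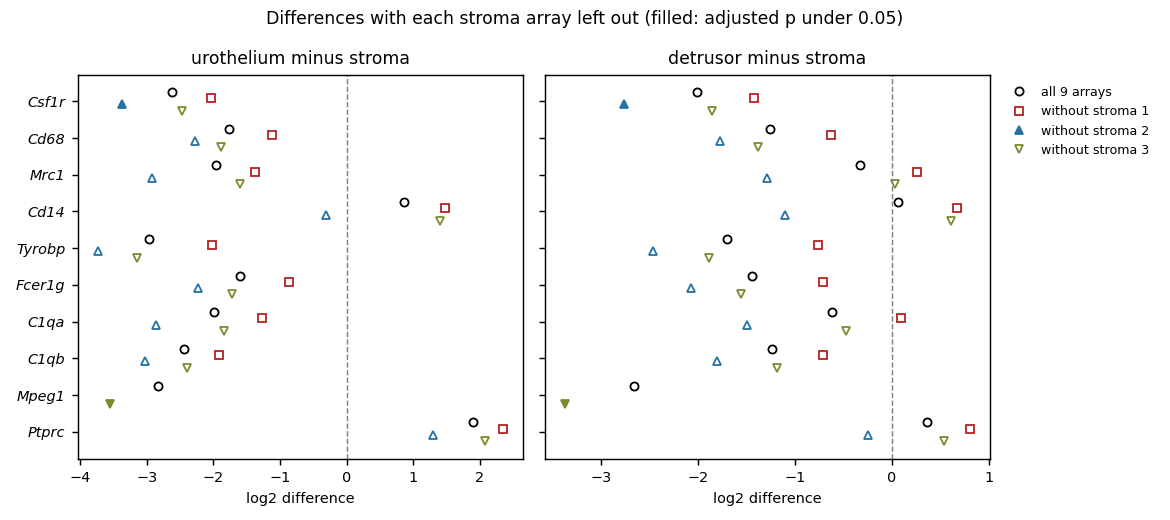
Log2 differences of the brightest probe set of each macrophage gene with all 9 arrays and with each stroma array left out, for urothelium minus stroma and detrusor minus stroma. Filled symbols have a limma adjusted p under 0.05, which held for Csf1r without stroma 2 and for Mpeg1 without stroma 3, and Mpeg1 has no symbol without stroma 1 or stroma 2.

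Postnatal day 2 against day 1, with the layer as a covariate, gave no called macrophage gene probe set, against 0.0195% of all probe sets, and none of the 14 passed an unadjusted limma p under 0.05, against 6.99% of all. The differences ran from -1.11 for Tyrobp (limma adjusted p = 0.729) to 1.17 for Ptprc, and the median was -0.55 over the 14 and 0.10 over all. Within day 1, where stroma 1 is the only stroma array, all 14 differences of urothelium minus stroma and of detrusor minus stroma were below 0, with medians of -3.16 and -2.79. Within day 2, where stroma 2 and stroma 3 are the stroma arrays, 12 of the 14 were below 0 in urothelium minus stroma, with a median of -1.67, and 7 of the 14 in detrusor minus stroma, with a median of -0.13. The detrusor median thus lay well below the stroma in the pooled and the day 1 values and close to it in the day 2 values. The urothelium minus detrusor median was -0.58 within day 1 and -1.0 within day 2.

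Among the ligands of CSF1R, Csf1 and Il34 were looked up for their role. The brightest Csf1 probe set, 1460220_a_at, read 600.0, 241 and 947 in urothelium 1 to 3, 1461, 982 and 1053 in detrusor 1 to 3, and 1473, 662 and 1412 in stroma 1 to 3. Its urothelium minus stroma difference was -1.04 (limma adjusted p = 0.373), detrusor minus stroma was 0.04 (adjusted p = 0.975) and urothelium minus detrusor was -1.08 (adjusted p = 0.232). The other tested Csf1 probe set, 1448914_a_at, read 15.7, 34.1 and 281 in urothelium 1 to 3, 159.6, 215 and 265 in detrusor 1 to 3, and 618, 217 and 353 in stroma 1 to 3. Its urothelium minus stroma difference was -1.89 (limma adjusted p = 0.232) and detrusor minus stroma was -0.70 (adjusted p = 0.623). The 2 Csf1 probe sets that did not pass the filter were also highest in stroma 1, at 598 and 617. The Il34 probe set read 62.4 to 216 on the 9 arrays and did not pass the filter. Spi1, which encodes PU.1, read 280, 180 and 317 in urothelium 1 to 3, 291, 347 and 204 in detrusor 1 to 3, and 250.5, 135 and 438 in stroma 1 to 3. This probe set did not share the high values in stroma 1. Its log2 differences were 0.02 in urothelium minus stroma, 0.12 in detrusor minus stroma and -0.10 in urothelium minus detrusor, none of them called by limma. The medians of stroma 1 to 3 were 253, 233 and 388. A probe set so near the array median cannot show that the Spi1 transcript departs from the macrophage genes.

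The list of CSF1 receptor ligands and myeloid transcription factors had 9 genes tested as 16 probe sets. In urothelium against detrusor, 3 of its probe sets were higher and 3 lower, against 11% of all probe sets called in either direction. Cebpa, a factor of granulocyte and monocyte precursors and of several epithelia, rose to 1689 to 2109 in urothelium, against 33.9 to 272 in detrusor (log2 difference 3.84, limma adjusted p = 0.00227). Both Runx1 probe sets, for a factor of blood stem cell formation, were higher in urothelium (2.13 and 3.22, limma adjusted p = 0.0493 and 0.00663). Maf, a factor of macrophages and of other cell types, was lower on 3 probe sets (-3.04, -3.49 and -2.34, limma adjusted p = 0.00361, 0.00293 and 0.0328). In detrusor against stroma Cebpa was lower (-2.38, limma adjusted p = 0.0400), as the only call of 16, against 3.56% of all. The list's median was 0.11 in urothelium against detrusor, beside -0.02 over all probe sets.

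The list of other macrophage surface and secreted genes had 21 genes tested as 25 probe sets, and limma called none in any layer comparison. At an unadjusted limma p under 0.05, 14 of the 25 were lower in urothelium than in stroma (8.81% of all probe sets), 2 lower in detrusor than in stroma (10.9% of all) and 3 lower in urothelium than in detrusor (12.5% of all), and none was higher. Its medians were -1.82 in urothelium against stroma, -0.63 in detrusor against stroma and -1.06 in urothelium against detrusor. Ms4a6c had the smallest adjusted p (urothelium minus detrusor -1.89, limma adjusted p = 0.0587), followed by Cd86, a costimulatory ligand of T cells (urothelium minus stroma -2.55, limma adjusted p = 0.0814). Of the receptors that signal through TYROBP or FCER1G, 11 genes were tested as 12 probe sets, and Clec4d, a C-type lectin that binds mycobacterial glycolipid, was called lower in urothelium against detrusor (-2.06, limma adjusted p = 0.0326). This 1 of 12 is below the 11% of all probe sets called there. The other 11 probe sets of this list were not called in any layer comparison.

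Of the complement genes, 7 were tested as 11 probe sets with none called by limma, and 6 of the 11 were lower in urothelium than in stroma at an unadjusted p under 0.05, against 8.81% of all. Serping1, the C1 inhibitor, gave -2.03 (limma adjusted p = 0.0724) and C1ra, the protease bound to C1q, gave -1.93 (limma adjusted p = 0.0924) in urothelium against stroma, and the list's median there was -1.64. Of the CD14 and Toll-like receptor partners, 10 genes were tested as 15 probe sets. Lbp, the serum protein that hands lipopolysaccharide to CD14, was called lower in detrusor against stroma (-2.74, limma adjusted p = 0.0465), as 1 of 15 against 3.56% of all, and its urothelium minus stroma difference of -2.92 had a limma adjusted p of 0.0863. Tlr4, the receptor partner of CD14, had 2 tested probe sets whose detrusor minus stroma differences were 1.25 and -0.50, neither called.

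The lysosome and phagosome list, with 19 genes tested as 35 probe sets, had calls in urothelium against detrusor and 0 by limma in the other 2 layer comparisons, where 11 of the 35 passed an unadjusted p under 0.05 in urothelium against stroma (15.3% of all) and 6 did in detrusor against stroma (19.5% of all). In urothelium against detrusor, 5 probe sets of 4 genes were higher in urothelium and 4 probe sets of 3 genes lower. The cathepsin genes Ctsc (1.82, limma adjusted p = 0.0167) and Ctsh (3.03 and 3.22, adjusted p = 0.0405 and 0.0146), the acid phosphatase gene Acp5 (2.61, adjusted p = 0.00293) and Ncf1 (5.15, adjusted p = 0.00515), for a subunit of the phagocyte oxidase, were higher. The cathepsin gene Ctsz (-1.29, limma adjusted p = 0.0371), the oxidase subunit gene Ncf4 (-3.52, adjusted p = 0.00623) and the progranulin gene Grn (-1.39 and -1.43, adjusted p = 0.0135 and 0.00882) were lower. These 9 calls in 35 probe sets stand beside 11% of all probe sets called in that comparison, and they ran in both directions.

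Of the leukocyte genes, 13 were tested as 18 probe sets. In urothelium against detrusor Fyb, an adapter of T cells and myeloid cells, was lower (-2.93, limma adjusted p = 0.0143), as was Coro1a, an actin-binding protein of leukocytes (-1.89, limma adjusted p = 0.0308). These 2 of 18 are the same share as the 11% of all probe sets called there. In the other layer comparisons limma called none of the 18. At an unadjusted limma p under 0.05, 4 of the 18 were lower in urothelium than in stroma (8.81% of all) and none was higher. In detrusor against stroma, 1 was lower and 2 were higher at that level, against 19.5% of all in either direction. The MHC class II list had 4 genes tested and none called by limma, with 1 of 4 at an unadjusted p under 0.05 in detrusor against stroma (10.9% of all were lower at that level) and none in the other layer comparisons. H2-DMa came nearest, in detrusor against stroma (-1.86, limma adjusted p = 0.0987), followed by Cd74, the invariant chain gene (-0.96, limma adjusted p = 0.278).

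Other cell types were read from their markers on the same arrays. The summed intensity of the 10 macrophage genes was 6574 to 8150 on the urothelium arrays, 6926 to 15104 on the detrusor arrays and 71114, 11158 and 36701 in stroma 1 to 3. Such a sum mostly follows its brightest probe sets, here Csf1r and Mrc1, at 39385 and 11307 on stroma 1. It also includes Ptprc, at 1110, 107 and 1709 in urothelium 1 to 3. The summed blood endothelium list, with 7 of 7 genes on the array, was 1922 to 6785 in urothelium, 4202 to 11345 in detrusor and 18804, 8825 and 13739 in stroma 1 to 3. The fibroblast list, with 6 of 6 genes, summed to 116292 to 235530 in urothelium, 228165 to 316035 in detrusor and 486175, 327025 and 433335 in stroma 1 to 3. Both lists were thus highest in stroma 1 and lowest, among stroma arrays, in stroma 2, the order of the macrophage genes, with stroma 1 exceeding stroma 2 by less. The part of the cell mixture in the macrophage gene values was not tested.

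Markers of other blood cells were mostly dim. Of the T cell, B cell and natural killer cell lists, 1, 0 and 0 genes passed the filter, and of the neutrophil and dendritic cell lists 2 and 1 did. Of the erythroid list, with 3 genes on the array, 2 passed. Its mean centred log2 level was 0.50, -0.26 and -0.19 in urothelium 1 to 3, and 1.04, -1.04 and -1.39 in detrusor 1 to 3. In stroma 1 to 3 it was 0.43, -0.75 and 1.65. The 2 tested genes differed there, with Alas2 at 1256, 143 and 1346 and Slc4a1 at 34.2, 96.7 and 804. In the mast cell list, 4 of 8 genes passed. Hdc, the enzyme that makes histamine, read 7284, 913 and 1488 in urothelium 1 to 3, 759.9, 10.5 and 8.96 in detrusor 1 to 3, and 2258, 2873 and 5016 in stroma 1 to 3, and was lower in detrusor than in stroma (-4.70, limma adjusted p = 0.0360) and higher in urothelium than in detrusor (4.15, limma adjusted p = 0.0271). These are 1 of 5 tested mast cell probe sets in each comparison, against 3.56% and 11% of all. Fcer1g is also expressed by mast cells, and Mrc1 by lymphatic endothelium. The mean centred log2 level of the 8 mast cell genes was 0.24, -0.10 and -0.33 in urothelium 1 to 3, 0.24, -1.03 and -0.92 in detrusor 1 to 3, and 0.73, 0.04 and 1.12 in stroma 1 to 3. That of the 5 lymphatic endothelium genes on the array was -0.54, -0.91 and -0.47 in urothelium, 1.65, -1.41 and 0.10 in detrusor, and 0.91, 0.04 and 0.63 in stroma. Stroma 2 was the lowest stroma array on both lists, although single genes differed in their order. Among them, named after their values were seen, the mast cell gene Kit read 717, 883 and 612 in stroma 1 to 3, and the lymphatic gene Mmrn1 read 117, 462 and 185.

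**Figure D5:**
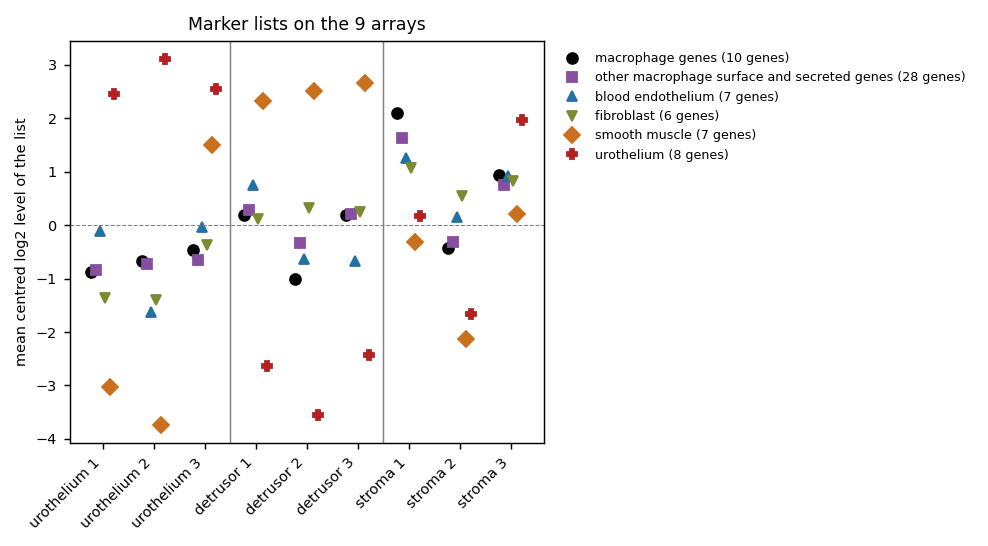
Mean centred log2 level of 6 marker lists on each array (brightest probe set of each gene, minus its mean over the 9 arrays), ordered urothelium, detrusor, stroma. The macrophage genes run with the other macrophage genes, at 2.11 and 1.64 on stroma 1, while the smooth muscle list is high on urothelium 3 and the urothelium list on stroma 3.

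The genes nearest to the mean centred profile of the 10 macrophage genes were found by the root mean square difference over the 9 arrays, among 13064 genes, for which the median of this measure was 1.10. They were Alox5ap (0.26), Sbsn (0.29), Laptm5 (0.30), Fcgr3 (0.33), Pld4 (0.36), Klf4 (0.36), Adgre1 (0.38) and Bdkrb2 (0.40). Alox5ap, which leukocytes need for making leukotrienes, read 603, 809 and 715 in urothelium 1 to 3, 2249, 673 and 1321 in detrusor 1 to 3, and 5630, 1141 and 2478 in stroma 1 to 3. Adgre1 encodes F4/80, the classical surface marker of mouse macrophages, and read 195, 429 and 347 in urothelium 1 to 3, 761, 392 and 636 in detrusor 1 to 3, and 2293, 606 and 724 in stroma 1 to 3. Fcgr3 encodes a receptor for immunoglobulin G that signals through FCER1G, and read 413, 588 and 511 in urothelium 1 to 3, 808, 363 and 721 in detrusor 1 to 3, and 6432, 484 and 1457 in stroma 1 to 3. Of these nearest genes, Laptm5, Fcgr3 and Adgre1 are on the gene lists used here. Alox5ap, Sbsn, Pld4, Klf4 and Bdkrb2 shared the profile and are on none of them. Klf4 read 4514, 6671 and 5176 in urothelium 1 to 3, 10388, 3578 and 9268 in detrusor 1 to 3, and 47839, 12511 and 15988 in stroma 1 to 3.

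Among the 10 genes themselves, Cd68 lay nearest to their mean profile (0.18) and Fcer1g next (0.33). C1qa (0.54), Csf1r (0.55), C1qb (0.56), Mrc1 (0.66) and Tyrobp (0.68) followed. Mpeg1 (1.17), Cd14 (1.17) and Ptprc (1.71) lay farther from it than the median gene did. Each gene's own values are part of the mean it is set against.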

How the data were processed

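RNA from 9 laser-captured bladder layer samples was measured on 9 single-colour arrays. The deposited table holds 1 linear intensity for each of 45101 probe sets and array, made by the authors with GCOS, per the submitters' processing notes, which give no version or algorithm. Every array had a trimmed mean of 1500. Detection calls were not used here. Genes were named from the platform annotation, in which 34945 probe sets have 1 symbol, 932 several and 9160 none, and a current gene table matched 34754 of the first and changed none. The 64 array controls were left out.

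Intensities were tested as log2(intensity + 39.31) with limma 3.58.1 (lmFit, eBayes with trend) in R 4.3.3, with the layer as the only factor, on those probe sets that reached the median of the array in 3 or more of the 9 arrays, with Benjamini-Hochberg adjustment over all 25695. Postnatal day was tested with the layer as a covariate. The code was tested on simulated data. Named were all 10 macrophage genes, each called gene of the pathway lists or otherwise the 2 with the smallest adjusted p, and the 8 genes nearest in profile, with 1 probe set per gene of highest mean. Csf1, Il34, Spi1, C1qc and Tlr4 were named for their roles after the values were seen. The genes, lists and comparisons were chosen with earlier results of these data known. Alternatives covered the scaling, the pseudocount, the filter, 1 probe set per gene, array weights, postnatal day as a covariate and each array left out. Replicate numbers follow the order of deposition and pair nothing. Sequences are from RefSeq (GRCm38.p6).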

Additional observations from a re-analysis of the deposited data

How the results depend on the processing

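No macrophage gene probe set was called with all 9 arrays in any of the 4 comparisons, and this held under quantile normalization, median centring, either other pseudocount, no filter, 1 probe set per gene and postnatal day as a covariate. With array weights, 1 of them was called in detrusor against stroma (Csf1r, -1.93, limma adjusted p = 0.0478) and 4 in urothelium against detrusor (Mrc1 -2.19, C1qa -2.05, Tyrobp -1.54 and C1qb -1.53, adjusted p from 0.0130 to 0.0447), where all called probe sets numbered 5481 against 2827. Without stroma 3 and urothelium 3 together, 1 was called in detrusor against stroma (Mpeg1, -3.37, adjusted p = 0.0318). With each array left out, the number called ran from 0 to 1 in urothelium against stroma, from 0 to 2 in detrusor against stroma, and was 0 in the other 2. The calls were Csf1r without stroma 2 and Mpeg1 without stroma 3, in each case the gene's lowest stroma array. Over all probe sets these fits gave 0 to 563 calls in urothelium against stroma (24 with all arrays), 69 to 943 in detrusor against stroma (915), 1270 to 3249 in urothelium against detrusor (2827) and 3 to 6 between days (5). Urothelium against stroma gave 37 calls with quantile normalization, 0 with median centring (limma, with 3937 at an unadjusted p under 0.05), 58 with the median as pseudocount and 268 without stroma 3 and urothelium 3. Between days, 1 probe set per gene gave 2. Median centring changed the higher and lower calls in detrusor against stroma to 873 and 181, from 527 and 388. The cause of these shifts was not tested.

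Among the single macrophage gene differences between layers, 694 alternative values kept their direction and side of the threshold, 11 passed the threshold and 21 changed sign. In detrusor against stroma, Mrc1 (-0.33) became 0.081 with median centring, 0.025 with array weights and 0.032 without stroma 3 and urothelium 3, and Cd14 (0.06) became -0.16 with the median as pseudocount and -0.14 with postnatal day as a covariate. In urothelium against detrusor, Mpeg1 (-0.18) became 0.034 with postnatal day as a covariate and 0.13 without stroma 3 and urothelium 3. With each array left out, detrusor minus stroma ran from -1.29 to 0.33 for Mrc1, from -1.10 to 0.67 for Cd14, from -0.25 to 1.15 for Ptprc and from -1.49 to 0.10 for C1qa. In the same fits urothelium minus detrusor ran from -0.84 to 0.26 for Fcer1g and from -0.58 to 0.13 for Mpeg1, and urothelium minus stroma ran from -0.31 to 1.47 for Cd14. The median day difference of the 14 probe sets ran from -1.11 to 0.17. No paired analysis was possible because the replicate numbers were given in order of deposition and the labels carry none.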
